A study of Mus musculus with 10 samples.

Results

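The genes described here are 38 genes of glucose breakdown and of the response to low oxygen. They were chosen by name, with earlier results of these data known. They comprise glucose transporters and hexokinases, the enzymes of glycolysis with the regulators of phosphofructokinase, and lactate and pyruvate genes. The pentose phosphate enzymes G6pdx, Pgd, Tkt and Taldo1 and oxygen-sensing and hypoxia-responsive genes complete the set. All 38 were found by symbol among the 38215 genes listed. Their RNA was measured by poly(A)-selected RNA-seq in mouse acute myeloid leukaemia (AML) cells that carry the AML1-ETO fusion and NrasG12D, both delivered by a retrovirus whose GFP marks the transduced cells. Lineage-depleted bone marrow was transduced and gave primary AML in Rag2-/-γc-/- mice, a strain without T, B or NK cells. GFP+ spleen cells of that AML were passed to secondary recipients, and the libraries were made from the GFP+ splenocytes of 5 immunocompetent C57BL/6J recipients (libraries 1, 3, 4, 5 and 6) and 5 Rag2-/-γc-/- recipients (libraries 7 to 11). Every library therefore comes from leukaemia that had already grown once without lymphocytes, and the groups differ in the secondary recipient. The labels give neither the age of the mice nor the number of primary leukaemias used, so p-values measure the spread between these recipients.

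Glycolysis splits glucose into pyruvate, which cells either oxidise in mitochondria or turn into lactate and export. The pentose phosphate pathway branches off at glucose 6-phosphate and yields NADPH and ribose. When oxygen is plentiful, prolyl hydroxylases mark the alpha subunit of the hypoxia-inducible factor (HIF) for destruction through the von Hippel-Lindau protein; when oxygen or hydroxylase activity is low, HIF accumulates, pairs with ARNT and binds the core ACGTG near genes for glucose transport, glycolysis, mitophagy and vessel growth. Leukaemia cells commonly rely on glycolysis, and the spleen and marrow they fill are poorly oxygenated in places.

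The design asks how growth in a recipient with an intact immune system, called immunoediting there, shaped the transcriptome. Levels are library-scaled counts (CPM with TMM factors). Differences are given as log2 fold changes ± standard error, positive where C57BL/6J was higher. A gene was called where the quasi-likelihood F test of edgeR gave a Benjamini-Hochberg adjusted p under 0.05 over all 13966 genes tested. Of the 38 genes, 35 passed the filter on low counts. The 3 that did not were Eno2 and Ldhb, the neuronal and heart forms of enolase and lactate dehydrogenase, at no more than 0.220 and 0.214 CPM in any library, and the prolyl hydroxylase gene Egln3, at 0.0755 to 0.611 CPM. Per kilobase they supplied at most 0.0169%, 0.0171% and 0.499% of the RNA they share with Eno1, Ldha and Egln1.

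In cells from C57BL/6J recipients 9 of the 35 genes were higher and 1 was lower, against 3.32% of all tested genes called higher and 4.47% called lower. The 9 were the hexokinase gene Hk3, the aldolase gene Aldoc, the phosphoglycerate kinase gene Pgk1, and the oxygen-related genes Hif1a, Egln1, Bnip3, Vegfa, Ankrd37 and Higd1a. Slc2a3, which encodes a high-affinity glucose transporter, was the lower one. The other 25 were not called. Groups were fully separate for 12 of the 35 genes, 11 of them higher (against 4.13% of all tested genes) and 1 lower (against 4.37%). The 2 separate genes that were not called were Aldoa and Ldha. The median log2 fold change was 0.28, against 0.00 over all tested genes, and its median size regardless of sign was 0.32, against 0.23. Differences of 3 of the 35 (8.57%) exceeded 2-fold, against 7.32% of all tested genes. The genes' share of all counts was 1.15 to 1.46% in the C57BL/6J libraries and 1.03 to 1.07% in the Rag2-/-γc-/- libraries.

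**Figure D1:**
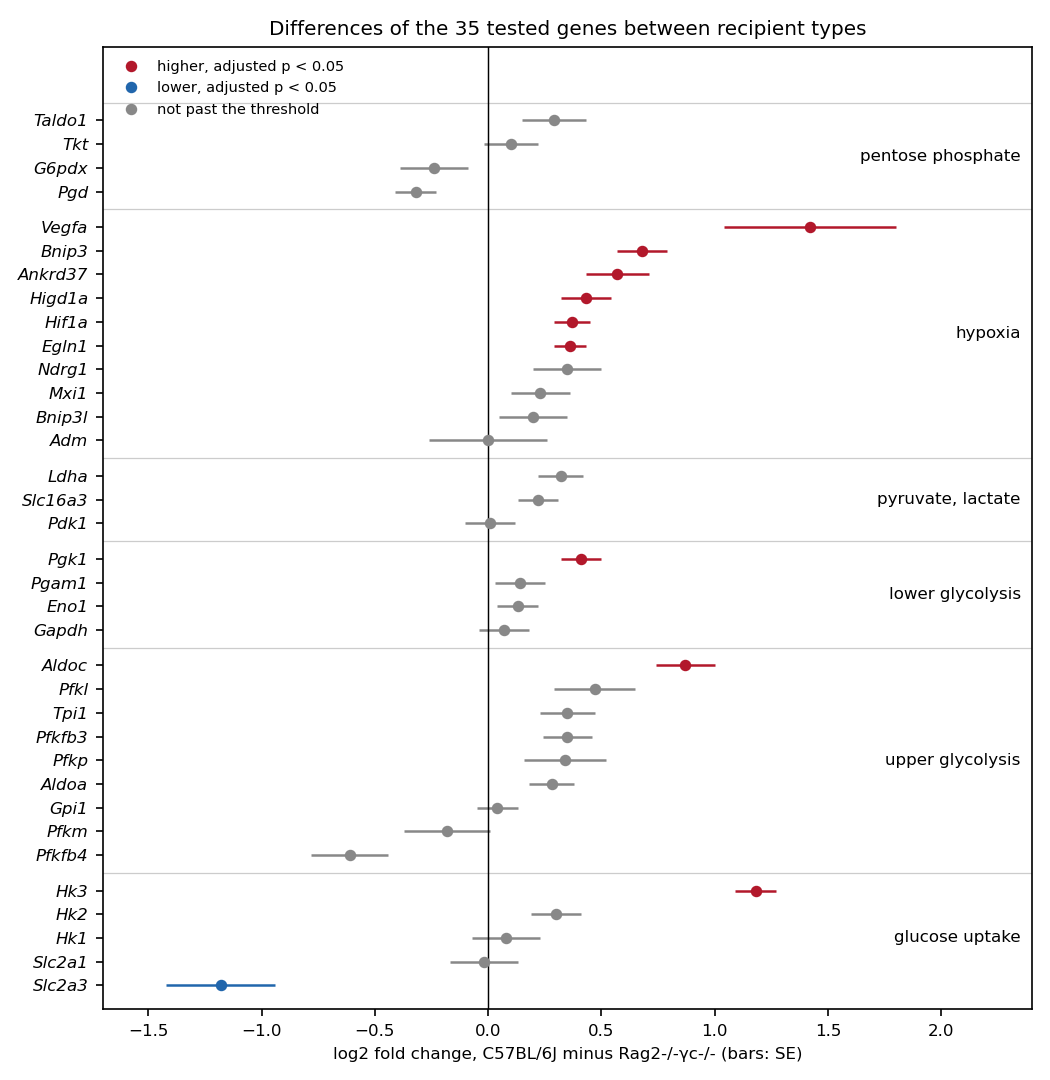
Log2 fold change (C57BL/6J minus Rag2-/-γc-/-, bars are the standard error) of the 35 tested genes, grouped by role. Red and blue points passed the adjusted p threshold of 0.05. Of the 10 hypoxia genes 6 are red, and the 4 pentose phosphate genes are grey.

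The called genes span much of the range of abundance. Per kilobase of the longest principal transcript, and averaged over the 10 libraries, Aldoa was the most abundant of the 38 at 1002 CPM per kilobase, followed by Gapdh (715), Ldha (693), Eno1 (480) and Pgk1 (462). The called genes other than Pgk1 were lower on this scale, with Hk3 at 48.8, Ankrd37 at 41.2, Bnip3 at 40.2, Egln1 at 38.2 and Hif1a at 30.6. Aldoc stood at 14.6, Higd1a at 12.0, Slc2a3 at 7.76 and Vegfa at 2.87. The Vegfa value rests on a principal transcript of 654 bases, while its merged exons span 4285 bases. With the longer length it would be several-fold lower. Pkm, the pyruvate kinase gene, is outside the 38 and reached 1054 on the same scale, with a log2 fold change of 0.11 ± 0.12 (edgeR adjusted p = 0.542).

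The ACGTG core, which HIF binds, is shown for promoters of genes that were called higher. RefSeq promoters (GRCm38.p6, 250 bases before to 50 after each annotated start) were found for 35 of the 38 genes; Slc2a3, Bnip3l and Ndrg1 had none in the table used. The core was searched as ACGTG and, for the other strand, CACGT; these strings overlap in the palindrome CACGTG. The stretches below are the 160 bases before the start, 5′ to 3′ on the gene's strand, with each core in capitals. They come from chr13:55021386-55021545 (minus strand) for Hk3, chrX:106186940-106187099 (plus strand) for Pgk1 and chr12:73907707-73907866 (plus strand) for Hif1a, and none of them overlaps an exon in GENCODE M21.
Hk3: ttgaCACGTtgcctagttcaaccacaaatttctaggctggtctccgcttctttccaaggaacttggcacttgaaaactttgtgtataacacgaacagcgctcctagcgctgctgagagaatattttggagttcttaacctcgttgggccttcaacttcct
Pgk1: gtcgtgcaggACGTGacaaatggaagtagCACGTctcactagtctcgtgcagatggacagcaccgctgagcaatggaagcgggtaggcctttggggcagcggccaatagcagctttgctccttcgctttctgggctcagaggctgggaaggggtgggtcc
Hif1a: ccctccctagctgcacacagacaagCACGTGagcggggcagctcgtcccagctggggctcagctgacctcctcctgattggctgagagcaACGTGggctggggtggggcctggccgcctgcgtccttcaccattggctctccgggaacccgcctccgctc
Hk3 held 1 core, which began 156 bases upstream of the start. Pgk1 held cores at 150 and 131 bases upstream, on opposite strands. Hif1a, the gene of the factor itself, held the palindrome at 135 bases and a further core at 70 bases upstream. For Bnip3 and Egln1 only the 26 bases around the core are shown, from chr7:138909599-138909624 and chr8:124949307-124949332 (both minus strand), 108 and 68 bases upstream of their starts.
Bnip3: gcacgcgccgCACGTGccacacgctc
Egln1: gccgtggtgtACGTGcagcgcgcgcg
Across the 38 genes the core was present in 26 of 51 promoters (51.0%), compared with 25.3% of the promoters of tested genes and 19.6% of all 32851 promoters. Among the genes called higher it was present in 9 of 11 promoters (81.8%), and among the other tested members in 16 of 37 (43.2%). Counted by gene, each of the 9 genes called higher held it in at least 1 promoter. The same was true of 12 of 23 other tested members (52.2%) and of 29.4% of tested genes. Median GC content was 66.7% in promoters of the genes called higher, 60.7% in those of the other tested members and 60.3% in those of all tested genes. The palindrome CACGTG was present in 9.80% of the members' promoters and in 9.91% of those of tested genes. Genes that were not called held cores too, among them Hk2 (226 and 52 bases upstream) and Slc16a3 (27 and 14 bases). Ldha, also not called, held them at 145, 48 and 34 bases upstream of 1 of its 2 starts. A match describes these letters in these windows, and binding was not measured. The members were chosen by name from pathways that include known HIF targets, so these shares describe the list. Whether the core bears on the calls was not tested.

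Entry of glucose is set by transporters, and hexokinases then trap it as glucose 6-phosphate. Hk3 (chr13:55005985-55021385), the form typical of myeloid cells, showed the smallest adjusted p of the 38 genes. Its level was 203, 225, 216, 238 and 208 CPM in the C57BL/6J libraries 1, 3, 4, 5 and 6, and 97.1, 83.9, 91.8, 93.5 and 114 CPM in the Rag2-/-γc-/- libraries 7 to 11. The lowest C57BL/6J library was well above the highest Rag2-/-γc-/- library. Means were 218 ± 13.9 and 96.1 ± 11.1 CPM (SD, n = 5 each), which is a difference of 1.18 ± 0.09 on the log2 scale (edgeR adjusted p = 5.99e-05). The call held with each library left out in turn (log2 1.14 to 1.25) and was the only one of the 10 that held when Rag2-/-γc-/- libraries 7, 8 and 9 were left out together (log2 1.07, edgeR adjusted p = 0.0048).

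The other hexokinases differed less. Hk2, the insulin- and HIF-responsive form, stood at 206 to 248 CPM in C57BL/6J and 151 to 216 CPM in Rag2-/-γc-/- libraries, with overlap and a log2 fold change of 0.30 ± 0.11 (edgeR adjusted p = 0.107, and 0.0468 without Rag2-/-γc-/- library 11). Hk1, the widely expressed form, stood at 81.8 ± 5.14 and 77.4 ± 19.6 CPM (SD, n = 5 each; log2 0.08 ± 0.15). Per kilobase, Hk3 therefore made up 50.7 to 54.0% of hexokinase RNA in C57BL/6J and 32.0 to 38.4% in Rag2-/-γc-/- libraries. The Hk2 share was 30.7 to 32.7% and 36.6 to 42.6%, and the Hk1 share 14.6 to 17.9% and 19.0 to 29.95%. In all 3 shares the groups were separate on this scale; without division by length the Hk1 shares overlapped (up to 17.1% in C57BL/6J, down to 16.96% in Rag2-/-γc-/- libraries). Summed hexokinase RNA was 122 to 138 CPM per kilobase in C57BL/6J and 74.8 to 94.3 in Rag2-/-γc-/- libraries, so the sum was separate too.

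Slc2a3 (chr6:122727809-122801640) moved the other way. It stood at 14.5, 18.8, 21.1, 28.0 and 11.6 CPM in the C57BL/6J libraries and at 55.9, 37.6, 29.0, 44.9 and 45.8 CPM in Rag2-/-γc-/- libraries 7 to 11. C57BL/6J library 5, at 28.0, came close to Rag2-/-γc-/- library 9, at 29.0, without reaching it. The log2 fold change was −1.18 ± 0.24 (edgeR adjusted p = 0.0129; 0.0612 without libraries 7, 8 and 9). Slc2a1, the main transporter gene of these cells, was not called: it ranged from 211 to 310 CPM and from 222 to 372 CPM (log2 −0.02 ± 0.15, edgeR adjusted p = 0.954). Per kilobase Slc2a1 took 92.5 to 96.5% of the pair's RNA in C57BL/6J and 85.7 to 91.1% in Rag2-/-γc-/- libraries.

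**Figure D2:**
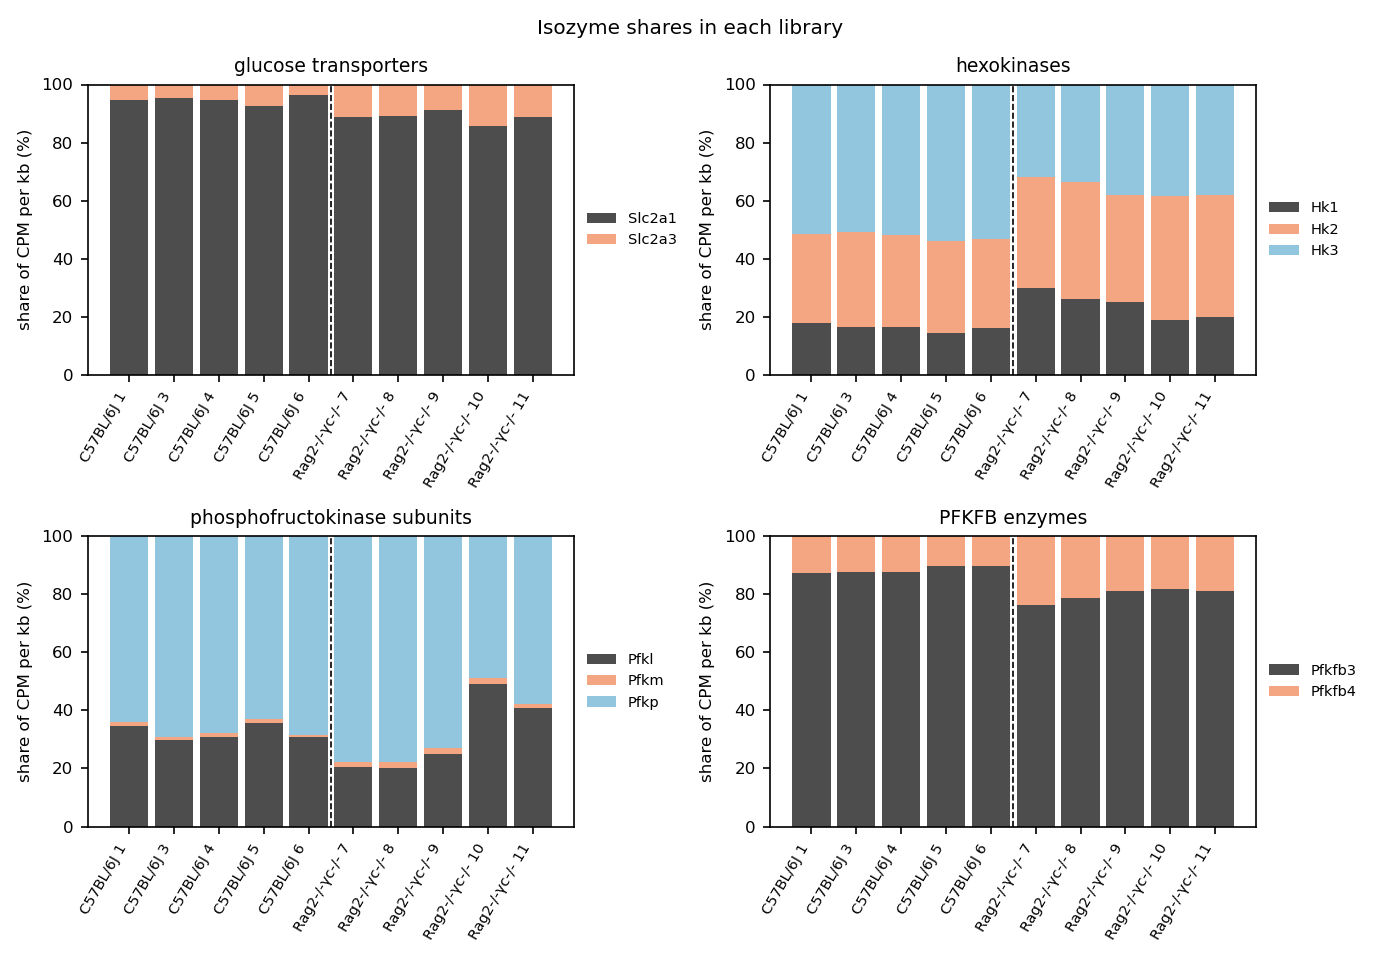
Share of each isozyme in the summed CPM per kilobase of its family, in each library (stacked bars, dashed line between the groups). The Hk3 segment is 50.7 to 54.0% in the C57BL/6J libraries and 32.0 to 38.4% in the Rag2-/-γc-/- libraries, and Pfkl and Pfkp shares in Rag2-/-γc-/- libraries 10 and 11 differ from those in 7, 8 and 9.

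In the upper steps, which end with the triose phosphates, 1 of 9 genes was higher. Aldoc (chr11:78322968-78327781), the minor aldolase of these cells and best known from brain, stood at 63.3, 44.2, 43.8, 48.6 and 62.3 CPM in C57BL/6J libraries and at 25.01, 30.5, 29.4, 31.8 and 27.0 CPM in Rag2-/-γc-/- libraries. All 5 C57BL/6J values were above all 5 others, with a log2 fold change of 0.87 ± 0.13 (edgeR adjusted p = 0.00248; 0.0709 without libraries 7, 8 and 9). It supplied 1.48 to 2.06% of aldolase RNA per kilobase in C57BL/6J and 0.988 to 1.30% in Rag2-/-γc-/- libraries. Aldoa, which supplied the rest, ranged from 1510 to 2073 CPM against 1260 to 1451 CPM. Its groups did not overlap, but its log2 fold change of 0.28 ± 0.10 was not called (edgeR adjusted p = 0.115). Tpi1, which interconverts the triose phosphates, stood at 739 ± 121 and 581 ± 67.3 CPM (SD, n = 5 each; edgeR adjusted p = 0.107, and 0.0418 without Rag2-/-γc-/- library 10). Gpi1, the glucose phosphate isomerase gene, was at 997 ± 107 and 967 ± 76.7 CPM (log2 0.04 ± 0.09).

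Phosphofructokinase commits sugar to glycolysis and is built from liver, muscle and platelet type subunits. Pfkl stood at 252 to 281 CPM in the C57BL/6J libraries, at 147, 131 and 163 CPM in Rag2-/-γc-/- libraries 7, 8 and 9, and at 257 and 256 CPM in libraries 10 and 11. Libraries 10 and 11 thus matched the C57BL/6J range, and the pooled log2 fold change of 0.47 ± 0.18 was not called (edgeR adjusted p = 0.139). It was 0.60 without library 10 (adjusted p = 0.038), 0.85 without libraries 10 and 11 (adjusted p = 0.000338) and 0.05 without libraries 7, 8 and 9 (adjusted p = 0.911). Pfkp showed the reverse split. It stood at 548 to 648 CPM in C57BL/6J, at 621, 560 and 534 CPM in libraries 7, 8 and 9, and at 285 and 402 CPM in libraries 10 and 11 (log2 0.34 ± 0.18, edgeR adjusted p = 0.251). Without libraries 7, 8 and 9 it was 0.83 (adjusted p = 0.0322). The Pfkl share of subunit RNA per kilobase accordingly ran from 20.3 to 49.1% over the Rag2-/-γc-/- libraries, around the C57BL/6J range of 29.9 to 35.7%. Pfkm was a trace component at 5.86 to 11.2 CPM.

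The PFKFB enzymes make and break the allosteric activator of phosphofructokinase, and the 2 genes had differences of opposite sign that edgeR did not call. DESeq2 called both, Pfkfb3 higher (adjusted p = 0.0393) and Pfkfb4 lower (0.0121). Pfkfb3 stood at 116 to 152 CPM against 88.6 to 121 CPM (log2 0.35 ± 0.11, edgeR adjusted p = 0.078, and 0.0441 without C57BL/6J library 1). Pfkfb4 stood at 11.3 to 16.0 CPM against 26.1, 24.0 and 21.4 CPM in Rag2-/-γc-/- libraries 7, 8 and 9, and 14.9 and 16.2 CPM in libraries 10 and 11. It differed by log2 −0.61 ± 0.17 (edgeR adjusted p = 0.0518), with 0.0165 without library 10, 0.0329 without library 11 and 0.0477 under a filter of 1 CPM in 5 libraries. Pfkfb3 took 87.2 to 89.6% of the pair's RNA per kilobase in C57BL/6J and 76.3 to 81.7% in Rag2-/-γc-/- libraries, with no overlap.

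Among the lower steps, where ATP is regained, Pgk1 (chrX:106187100-106203699), which catalyses the first ATP-forming step, was the 1 gene of 4 tested that was called. It stood at 1127, 862, 920, 947 and 955 CPM in the C57BL/6J libraries and at 755, 768, 734, 678 and 693 CPM in the Rag2-/-γc-/- libraries. The groups were separate, with a log2 fold change of 0.41 ± 0.09 (edgeR adjusted p = 0.0173; 0.107 without libraries 7, 8 and 9). Gapdh, Pgam1 and Eno1, on either side of Pgk1 in the pathway, overlapped between the groups. Gapdh was at 1039 ± 166 and 991 ± 81.5 CPM (log2 0.07 ± 0.11), Pgam1 at 640.5 ± 90.7 and 581.7 ± 62.8 CPM (log2 0.14 ± 0.11), and Eno1 at 1016 ± 122 and 929 ± 57.5 CPM (log2 0.13 ± 0.09; SD, n = 5 each). These genes have near-identical copies elsewhere in the genome, and expected counts divide shared reads among them. The copies took 30.5 to 32.4% of the joint count of Pgk1 and its copies, 32.3 to 37.0% for Pgam1, 22.4 to 23.2% for Eno1 and 7.88 to 9.73% for Gapdh, so the levels of these genes are uncertain to that extent. Adding the copies to each gene left Pgk1 at log2 0.39 (adjusted p = 0.02) and changed no call among the 35.

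Pyruvate is turned into lactate by lactate dehydrogenase and exported by Slc16a3, and Pdk1 restrains its entry into mitochondrial oxidation. None of the 3 tested genes was called by edgeR; 2 had an unadjusted p under 0.05, and DESeq2 called Ldha. Ldha stood at 1692, 1171, 1278, 1288 and 1357 CPM against 1073, 1123, 1148, 1112 and 996 CPM. The groups did not overlap, although C57BL/6J library 3 lay only just above Rag2-/-γc-/- library 9 (log2 0.32 ± 0.10, edgeR adjusted p = 0.0853; DESeq2 adjusted p = 0.0414). Slc16a3 was at 242 to 307 CPM against 225 to 260 CPM (log2 0.22 ± 0.09, adjusted p = 0.144). Pdk1 was at 120.5 ± 8.58 and 119.7 ± 17.1 CPM (SD, n = 5 each; log2 0.01 ± 0.11).

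The oxygen-related genes had a median log2 fold change of 0.36. They were called most often, with 6 of 10 tested higher and none lower, against 3.32% and 4.47% of all tested genes. The list was chosen with earlier results of these data known, so this count describes the list and does not test the pathway. Hif1a (chr12:73901375-73947530), the oxygen-regulated subunit of the factor, stood at 175, 167, 153, 153 and 168 CPM in C57BL/6J libraries and at 110.0, 125, 127, 136 and 131 CPM in Rag2-/-γc-/- libraries. It was higher by log2 0.37 ± 0.08 (edgeR adjusted p = 0.0175; 0.0511 without C57BL/6J library 6). Egln1 (chr8:124908596-124949254), the main prolyl hydroxylase that acts on HIF and itself a HIF target, was at 164, 162, 151, 138 and 157 CPM against 120, 119, 120, 115 and 128 CPM (log2 0.36 ± 0.07, edgeR adjusted p = 0.0136). Both the factor and its brake were thus about equally higher, with every C57BL/6J library above every other.

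Bnip3 (chr7:138890836-138909519), a receptor that directs damaged mitochondria to autophagy, stood at 91.0, 80.7, 109, 81.0 and 72.9 CPM against 49.1, 61.1, 56.9, 52.9 and 50.8 CPM. The groups were separate, with a log2 fold change of 0.68 ± 0.11 (edgeR adjusted p = 0.00481), and a near-identical pseudogene took 7.92 to 10.4% of the joint count. Its relative Bnip3l was not called, at 97.4 to 129 CPM against 109, 112 and 101 CPM in Rag2-/-γc-/- libraries 7, 8 and 9 and 69.2 and 73.7 CPM in libraries 10 and 11 (log2 0.20 ± 0.15). Higd1a (chr9:121848560-121858000), a small mitochondrial protein gene induced by HIF, was at 32.4, 30.4, 27.6, 28.4 and 34.99 CPM against 25.3, 24.1, 24.2, 20.1 and 20.2 CPM (log2 0.43 ± 0.11, edgeR adjusted p = 0.0299). Its near-identical copy, a processed pseudogene, took 29.0 to 33.9% of the joint count. The Higd1a call was lost when C57BL/6J library 3 (adjusted p = 0.0599) or 6 (0.0827) was left out, and when Rag2-/-γc-/- library 8 (0.058) or 9 (0.0588) was.

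Vegfa (chr17:46016993-46032377), the vascular growth factor gene, had the largest fold change and the lowest level of the called genes. It stood at 1.65, 2.37, 5.18, 1.59 and 2.89 CPM against 1.42, 0.592, 0.832, 0.751 and 1.47 CPM, from 23 to 204 counts per library. C57BL/6J library 4 was far above the others, and library 5, the lowest of its group, was little above Rag2-/-γc-/- library 11. The log2 fold change was 1.42 ± 0.38 (edgeR adjusted p = 0.0445). That call ended without C57BL/6J library 3 (adjusted p = 0.0698), 4 (log2 1.06, 0.0904) or 6 (0.0955), without Rag2-/-γc-/- library 7 (0.0576), 8 (0.106) or 9 (0.108), and under limma-voom (0.0625).

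Ankrd37 (chr8:45996902-45999867), an ankyrin repeat gene known as a HIF target, was at 50.9, 47.8, 48.2, 42.6 and 38.7 CPM against 37.3, 27.2, 27.0, 24.2 and 38.2 CPM. Rag2-/-γc-/- libraries 7 and 11 lay close under C57BL/6J library 6. The log2 fold change was 0.57 ± 0.14 (edgeR adjusted p = 0.0358), and the call was lost when C57BL/6J library 1 (0.0631), 3 (0.0781), 4 (0.0735) or 5 (0.0583) was left out, and when Rag2-/-γc-/- library 8 (0.0924) or 9 (0.0932) was. Its annotated exons overlap those of Ufsp2 on the other strand by 57 bases and of Lrp2bp by 349 bases, and the counting is not stated to use strand.

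The 4 oxygen-related genes that were not called included Adm, the vasodilator adrenomedullin gene and a classical HIF target, at 2.85 to 5.38 CPM against 2.34 to 6.02 CPM (log2 0.00 ± 0.26). Ndrg1, a stress-responsive gene, was at 34.7 ± 6.15 and 27.1 ± 4.81 CPM (SD, n = 5 each; log2 0.35 ± 0.15, edgeR adjusted p = 0.173). Mxi1, an antagonist of Myc, was at 53.4 to 59.4 CPM in the C57BL/6J libraries and at 59.1, 56.96, 46.4, 34.8 and 43.2 CPM in the Rag2-/-γc-/- libraries, where only libraries 9, 10 and 11 lay under the C57BL/6J range (log2 0.23 ± 0.13). The called members of the oxygen-related list thus rose by log2 0.36 to 1.42, while these genes did not pass the test.

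**Figure D3:**
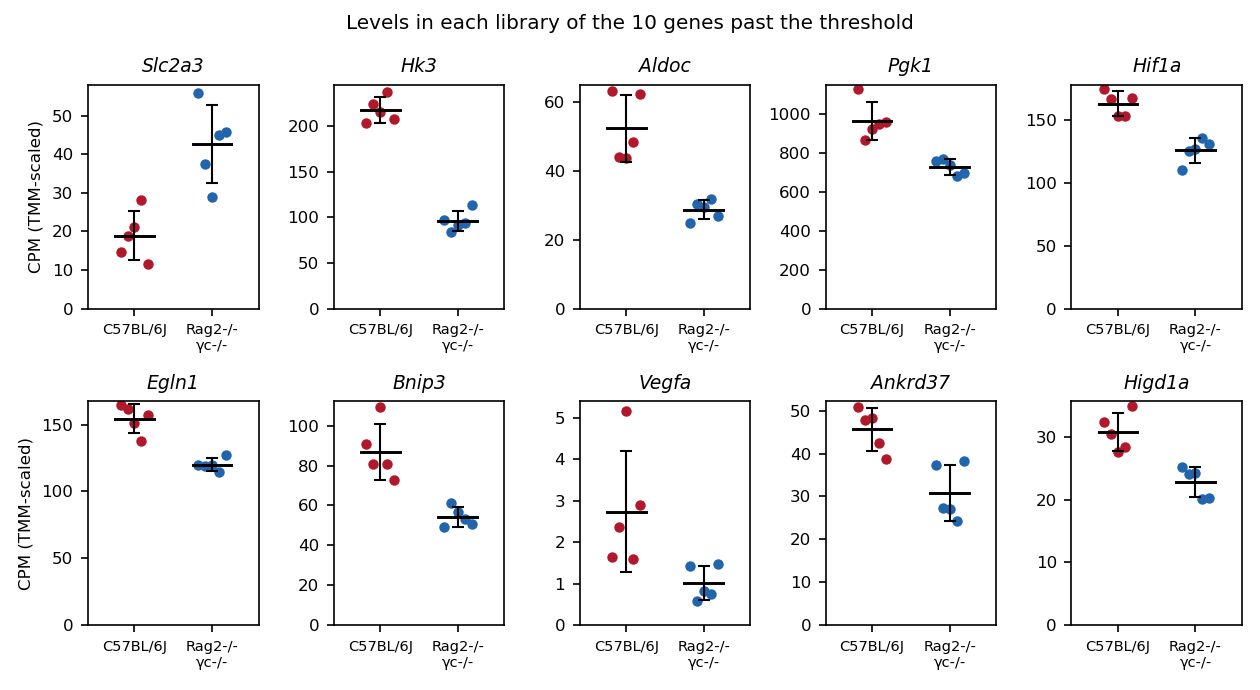
CPM in each library of the 10 called genes (points), with the group mean and SD (black), each axis starting at 0. In every panel the 5 C57BL/6J points and the 5 Rag2-/-γc-/- points are separate, by a wide gap for Hk3 (203 against 114 CPM) and by a narrow one for Ankrd37 (38.7 against 38.2 CPM).

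No gene of the pentose phosphate pathway was called by edgeR (1 of 4 had an unadjusted p under 0.05, and DESeq2 called that gene, Pgd). G6pdx and Pgd produce NADPH. Pgd stood at 137, 119, 117, 126 and 118 CPM against 171, 162, 164, 146 and 129 CPM, with only Rag2-/-γc-/- library 11 inside the C57BL/6J range (log2 −0.32 ± 0.09, edgeR adjusted p = 0.0555). Pgd passed the threshold when C57BL/6J library 1 was left out (0.0336), and likewise Rag2-/-γc-/- library 10 (0.0397) or 11 (0.0223). G6pdx was at 34.0 to 58.5 CPM against 42.8 to 64.6 CPM (log2 −0.24 ± 0.15, edgeR adjusted p = 0.33), and its exons overlap those of Ikbkg on the other strand by 418 bases. Tkt and Taldo1, which exchange carbons between sugars, were at 364 ± 63.1 and 338 ± 37.3 CPM and at 543 ± 97.1 and 444 ± 74.3 CPM (SD, n = 5 each; log2 0.10 ± 0.12 and 0.29 ± 0.14).

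Other genes of these pathways were taken as 4 lists, with 96 entries and 76 tested. Over all tested genes 3.32% were called higher and 4.47% lower. Of 25 further glycolysis genes 1 was higher and 1 lower, close to these shares. Gys1, the glycogen synthase gene, stood at 51.8 ± 2.62 and 36.9 ± 4.27 CPM (SD, n = 5 each; log2 0.49, edgeR adjusted p = 0.0107). Pgam2, the muscle phosphoglycerate mutase gene, stood at 0.553 to 1.497 CPM in C57BL/6J, at 7.97, 8.12 and 6.73 CPM in Rag2-/-γc-/- libraries 7, 8 and 9, and at 1.44 and 1.42 CPM in libraries 10 and 11 (log2 −2.27, edgeR adjusted p = 0.0251). Its difference thus lay in 3 of the 5 Rag2-/-γc-/- libraries; without them it was −0.41 (adjusted p = 0.771), and leaving out any 1 of those 3, or of C57BL/6J libraries 3, 5 and 6, ended the call (0.0545 to 0.0673). Of 12 further pentose phosphate and NADPH genes edgeR called 1, and DESeq2 called Gsr and Txnrd1 lower besides. The gene edgeR called was Prps1, which turns ribose phosphate into the precursor of nucleotides, at 9.66 ± 3.58 and 3.998 ± 1.31 CPM (log2 1.28, edgeR adjusted p = 0.0217). That call was lost without C57BL/6J library 5 (0.0503) and also when Rag2-/-γc-/- library 8 was left out (0.0535).

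None of 12 further regulators of oxygen sensing was called by edgeR; 2 had an unadjusted p under 0.05, and DESeq2 called these 2, Cited2 and Egln2, lower. The smallest p was that of Cited2, which competes with HIF for its coactivator, at 66.9 ± 6.50 and 95.6 ± 22.5 CPM (log2 −0.52, edgeR adjusted p = 0.0627; 0.0397 without Rag2-/-γc-/- library 10 and 0.0129 without library 11). Arnt, the partner of HIF, stood at 43.7 to 53.8 CPM in C57BL/6J, at 75.7, 70.4 and 70.1 CPM in Rag2-/-γc-/- libraries 7, 8 and 9, and at 39.8 and 47.0 CPM in libraries 10 and 11 (log2 −0.27, adjusted p = 0.321). Without libraries 10 and 11 it was −0.52 (adjusted p = 0.00206), and without 7, 8 and 9 it was 0.21. Vhl was at 67.9 ± 5.86 and 59.9 ± 8.21 CPM (log2 0.18, adjusted p = 0.303). Epas1, the other main HIF alpha subunit gene, stayed under 0.683 CPM in every library and was not tested, whereas Hif1a was at 110.0 CPM or more.

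Of 27 further hypoxia-responsive genes, 4 were higher and 3 lower, against 3.32% and 4.47% of all tested genes. Their median log2 fold change was 0.06. Ak4, a mitochondrial adenylate kinase, stood at 12.6 ± 1.54 and 3.03 ± 1.05 CPM (log2 2.06, edgeR adjusted p = 0.000376). P4ha2, a collagen prolyl hydroxylase subunit, was at 9.48 ± 2.85 and 2.11 ± 0.980 CPM (log2 2.16, adjusted p = 0.0032), and Nampt, which makes the NAD precursor, at 144 ± 10.1 and 96.4 ± 6.32 CPM (log2 0.58, adjusted p = 0.00134). Fam162a was the fourth, at log2 0.82 (adjusted p = 0.0263); it lies outside the rule for named genes and was chosen after its values were seen. Among the lower genes were Hmox1, the haem oxygenase gene, at 390.2 ± 109 against 767 ± 205 CPM (log2 −0.97, adjusted p = 0.0185) and Anxa2, a membrane-binding annexin (log2 −0.83, adjusted p = 0.0198). The Anxa2 call was lost when C57BL/6J library 5 (0.0503) or 6 (0.0578) was left out, and when Rag2-/-γc-/- library 8 (0.0534) or 9 (0.0538) was. Genes known to respond to hypoxia therefore lay on both sides in this list, and all 6 calls among the 10 tested oxygen-related members were higher.

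**Figure D4:**
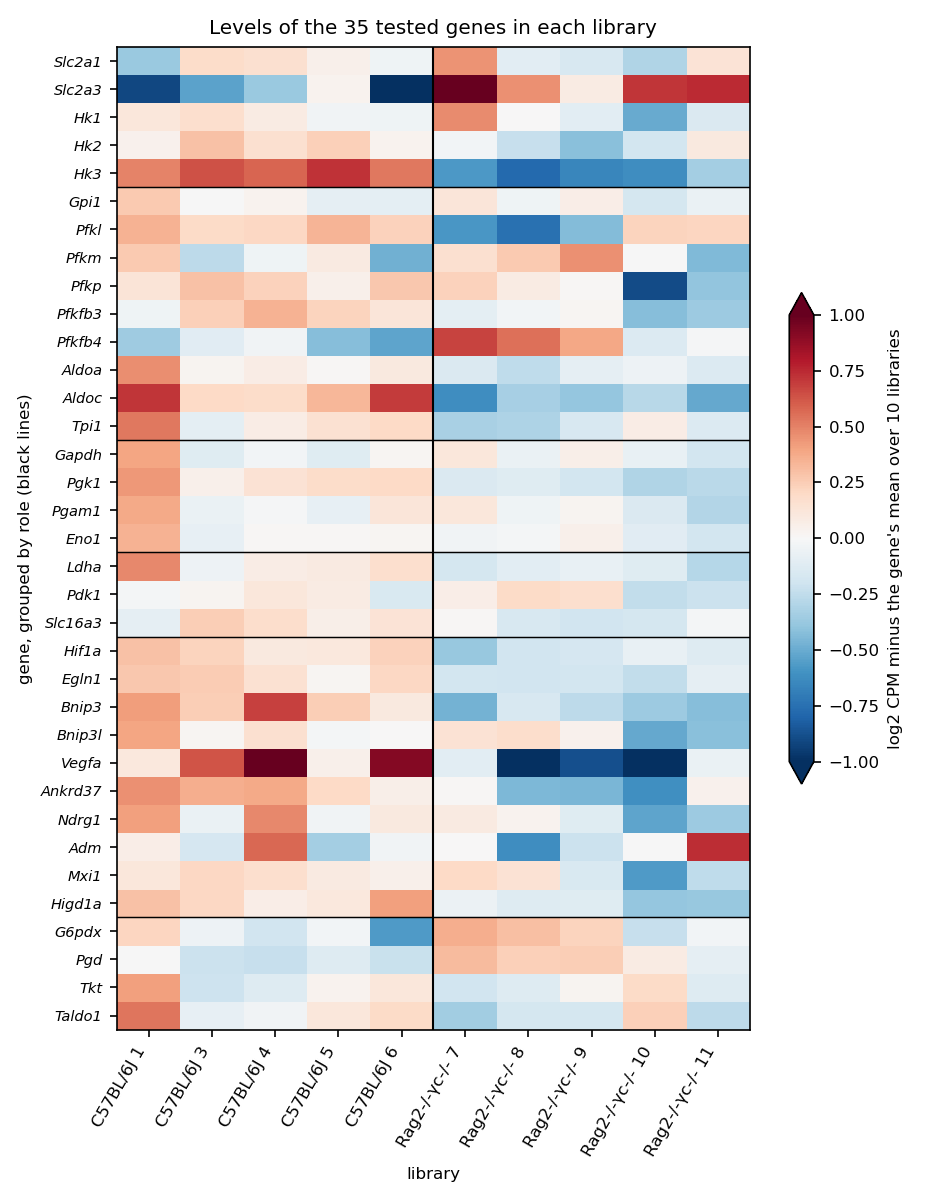
Log2 CPM of the 35 tested genes in each library, centred on each gene's mean over the 10 libraries (colour scale from −1 to 1, values beyond it shown at its ends; black lines separate the roles and the groups). The lower glycolysis genes are highest in C57BL/6J library 1, and 17 of the 35 genes are lower in Rag2-/-γc-/- libraries 10 and 11 than in 7, 8 and 9.

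Libraries within a group were not alike. C57BL/6J library 1 had the highest level of the 10 libraries in 16 of the 35 genes (45.7%, against 20.1% of all tested genes), among them Aldoa, Gapdh, Pgk1, Pgam1, Eno1 and Ldha. Mitochondrial genes took 1.34% of its counts, against 2.91 to 4.002% in the other 9 libraries, and its T cell marker Cd3e was at 3.42 CPM, against 0.152 to 1.41 in the other C57BL/6J libraries. Without it 9 members were higher and 2 lower, with Pfkfb3 and Pgd added and Ankrd37 lost. Rag2-/-γc-/- libraries 10 and 11 were both below libraries 7, 8 and 9 in 17 of the 35 genes (48.6%, against 31.0% of all tested genes) and both above them in 3 (8.57%, against 29.5%), namely Pfkl, Tpi1 and Hif1a. Counts of calls depended on which of these libraries were in the fit. Without libraries 10 and 11 12 members were higher and 3 lower, and without libraries 7, 8 and 9, which leaves 2 libraries against 5, 2 were higher (Hk3 and Pfkp) and none lower by edgeR (17 and 1 had an unadjusted p under 0.05), while the 9 other calls kept their direction (edgeR adjusted p = 0.0514 to 0.344). Their log2 fold changes in that fit of 7 libraries were −1.26 for Slc2a3, 0.84 for Aldoc, 0.49 for Pgk1, 0.30 for Hif1a, 0.36 for Egln1, 0.75 for Bnip3, 1.29 for Vegfa, 0.55 for Ankrd37 and 0.61 for Higd1a. Over all 13966 genes tested, the fit of all libraries called 464 higher and 624 lower. Without C57BL/6J library 1 the all-gene counts were 522 and 630. They were 2786 and 2518 without libraries 10 and 11, and 148 and 127 without libraries 7, 8 and 9.

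Markers show which other cells the GFP+ fraction may hold. Myeloid genes were abundant in both groups. Over the 10 libraries Irf8 averaged 1650.0, Itgam 760.0, Ptprc 584 and Spi1 383 CPM, while the granule genes Mpo and Elane averaged 0.308 and 0.0689 CPM. These averages hide differences. Irf8 stood at 1830 to 2220 CPM in C57BL/6J, and at 917, 1030, 1080, 1710 and 1790 CPM in Rag2-/-γc-/- libraries 7 to 11. Csf1r was at 13.4 to 46.4 CPM in C57BL/6J and 54.8 to 91.2 CPM in Rag2-/-γc-/- libraries, without overlap. Of the 12 myeloid and progenitor markers on the list 1 was called higher and 3 lower. Kit stood at 3.21 to 7.52 CPM in C57BL/6J and 0.163 to 0.434 CPM in Rag2-/-γc-/- libraries, Cd34 at 98.6 to 169 and 202 to 489 CPM, and Cd33 at 2.89 to 7.99 and 7.09 to 22.9 CPM. The summed level of 10 T cell markers was 60.8 to 114 CPM in C57BL/6J and 20.6 to 46.8 CPM in Rag2-/-γc-/- libraries, most of it from Cd8a, which some dendritic cells also make. Cd3e itself was at 0.152 to 3.42 CPM in C57BL/6J and at 0.00 to 0.0327 CPM in Rag2-/-γc-/- libraries. Of 8 endothelial and stromal markers only Pecam1 averaged over 1 CPM, at 1.31 to 7.39 CPM in C57BL/6J and 24.1 to 33.2 CPM in Rag2-/-γc-/- libraries. Col1a1 went the other way at 0.58 to 1.09 and 0.131 to 0.373 CPM, Cdh5, Kdr and Tek overlapped, and the sum of the 8 was 2.79 to 8.86 and 25.9 to 34.4 CPM. Sums of the 9 erythroid markers found were 14.9 to 146 and 74.8 to 243 CPM, of 8 red pulp macrophage markers 23.3 to 202 and 97.6 to 323 CPM, and of 8 B cell markers 93.7 to 320 and 96.9 to 209 CPM. NK cell, neutrophil and megakaryocyte markers summed to at most 4.52, 28.5 and 13.0 CPM. The summed T cell markers were thus higher with the 9 genes called higher, and Pecam1 with Slc2a3; the part of these cells in the results was not tested. In bulk RNA fewer cells with a transcript and less of it per cell cannot be told apart.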

How the data were processed

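The deposited table holds RSEM-type expected counts for each Ensembl gene, made by the authors. Cutadapt 1.11, STAR 2.5.2a, RSEM 1.2.30, edgeR and the build GRCm38 are named per the submitters' processing notes, with their roles and the annotation not given in the sources used here. Per the labels' protocols, libraries were poly(A)-selected and sequenced as single 75-base reads. Expected counts divide reads that fit several genes. Columns were matched to samples by title. Totals were 28157745 to 62461126 per library, and 15.3 to 17.3% of values were not whole, so counts were rounded.

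The main test was edgeR 4.0.16 (R 4.3.3; TMM, filterByExpr with minimum count 10 and total 15, group term only), adjusted over 13966 genes. Standard errors are the unshrunken coefficient over the square root of F. Shares used CPM per kilobase of the longest APPRIS principal transcript in GENCODE M21. Copies were transcripts of other genes matching at 95% identity over 200 bases (BLAST+ 2.17.0). Alternatives were RLE and upper-quartile scaling, DESeq2 1.42.0, limma-voom (limma 3.58.1), other count filters, robust dispersion, leaving out libraries singly or as 10 and 11 or 7, 8 and 9, and, added after seeing the data, copies added to the gene and lengths of merged exons. DESeq2 was run on all listed genes, without the count filter of the main test. Scripts were tested on simulated data.

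All 38 members are named; of other lists, up to 6 called genes with the smallest adjusted p (or the smallest p where none was called), plus Pkm, Epas1, Arnt and Vhl. A gene that this rule names is not reported here. The members and lists were chosen with earlier results of these data known.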

Additional observations from a re-analysis of the deposited data

Results flagged for a closer look

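In each group of 5 libraries the most extreme value of each tested gene was compared with its neighbour: it stood apart where the gap exceeded 0.710 of the group's range (Dixon's 95% value). Chance alone flags about 1 in 20 groups, and 4 of 70 stood apart here. Of these, 3 were in C57BL/6J library 1, with Aldoa at 2073 CPM against 1605 CPM in the next library, Gapdh at 1326 against 1023 CPM and Eno1 at 1230.0 against 984 CPM. Without that library the log2 fold changes were 0.18 for Aldoa, −0.03 for Gapdh and 0.05 for Eno1. The other was Taldo1 in Rag2-/-γc-/- library 10, at 571 CPM against 431 CPM in the next library; without it the log2 fold change of Taldo1 was 0.40 (edgeR adjusted p = 0.0517).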

How the results depend on the processing

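No paired analysis was possible because the groups share no replicate numbers. Of the 10 calls 6 (Hk3, Aldoc, Bnip3, Egln1, Pgk1 and Slc2a3) held with each library left out in turn. Scaling by RLE or upper quartile, robust dispersion, no count filter and added copies gave the same 9 higher and 1 lower members. Lower members numbered 3 with DESeq2, with the 1 CPM filter and without Rag2-/-γc-/- libraries 10 and 11, 0 without 7, 8 and 9, and 1 to 3 with single libraries left out; higher members numbered 2 without 7, 8 and 9. DESeq2 called 966 genes higher and 1209 lower; leaving out libraries 10 and 11 gave 2786 and 2518, leaving out 7, 8 and 9 gave 148 and 127, and single libraries 275 to 1076 and 304 to 1323. In the other pathway lists (6 higher, 4 lower) DESeq2 called 10 and 10, leaving out 10 and 11 gave 15 and 17, leaving out 7, 8 and 9 gave 1 and 1, and single libraries 4 to 11 and 2 to 8. The cause of these shifts was not tested.

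Direction changed only in genes that were not called. The groups of the called members were separate in the full set of libraries, so leaving libraries out could hardly have reversed them. Without libraries 7, 8 and 9 log2 fold changes were 0.08 for Slc2a1, 0.15 for Pfkm, −0.36 for Adm, 0.03 for G6pdx and 0.21 for Arnt. Without 10 and 11 they were −0.09 for Hk1, −0.02 for Gpi1, −0.13 for Pdk1 and −0.00 for Bnip3l. The 1 CPM filter gave −0.00 for Pdk1 and −0.01 for Adm, and RLE −0.00 for Adm. Single libraries left out gave −0.09 to 0.10 for Slc2a1, −0.02 to 0.23 for Hk1, −0.02 to 0.08 for Gpi1, −0.03 to 0.11 for Gapdh, −0.05 to 0.06 for Pdk1 and −0.16 to 0.24 for Adm. With merged exon lengths the difference in Slc2a1 share was 3.75 percentage points and in Aldoa share −0.903 (−1.01 without lengths). The log2 ratio of median marker levels was 5.20 for B cells, −0.06 for megakaryocytes and −0.46 for endothelial cells; medians of T and NK cell markers were too low for a ratio. Depth limits Vegfa, Adm, Pfkm and the 3 untested genes most.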

Other observations

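Several further genes of these pathways lay just outside the threshold; they were picked after their values were seen. Egln2, the third prolyl hydroxylase gene that acts on HIF, differed by log2 −0.46 (edgeR adjusted p = 0.0691), the opposite sign to Egln1. Tigar, which lowers the activator of phosphofructokinase, differed by 0.29 (adjusted p = 0.0783), Adpgk, an ADP-dependent glucokinase, by 0.55 (0.0797), and Mif, a cytokine gene responsive to HIF, by 0.41 (0.0744). Gsr and Txnrd1, reductases that spend NADPH, differed by −0.30 each (0.0925 and 0.0881). None of these 6 passed the threshold of edgeR; DESeq2 called all 6.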
